A study of Mus musculus with 10 samples.

Results

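Corticotropes of the anterior lobe and melanotropes of the intermediate lobe are the pituitary cells that make pro-opiomelanocortin, and the mRNAs described here are 5 that mark them: Pomc, Crhr1, Avpr1b, Tbx19 and Pax7. They were taken as the rows of the count table whose Ensembl gene IDs carry these symbols in the GENCODE annotation. All 5 were found among 55416 gene IDs, and all 5 were among the 20550 genes that passed the low-count filter.

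The data come from an RNA immunoprecipitation of Musashi1 and Musashi2, RNA-binding proteins that recognise short motifs in mRNAs and control their translation. Musashi IP libraries came from pooled Musashi1 and Musashi2 antibodies, and IgG libraries from control rabbit IgG applied to the other portion of the same lysate. Each lysate held 6 pooled pituitaries of sighted FVB mice (FVB.129P2-Pde6b+Tyrc-ch/Ant), aged 8 to 10 weeks and described as control animals; no group was treated. Lysates 2, 5 and 6 were female and lysates 3 and 7 male, which gives 5 Musashi IP and 5 IgG libraries. Per the protocol there were 6 occasions, and only 2 male lysates were analysed here. With both antibodies pooled, RNA bound to Musashi1 and RNA bound to Musashi2 cannot be told apart, and because whole pituitaries were lysed, the cell type in which an mRNA was bound cannot either.

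Pomc encodes the precursor that prohormone convertases cut into ACTH in corticotropes and into α-MSH and β-endorphin in melanotropes. Corticotropin-releasing hormone acts through Crhr1, a receptor coupled to Gs and cyclic AMP, and vasopressin acts through Avpr1b, a receptor coupled to Gq and phospholipase C. Tbx19 (also called Tpit) is the T-box transcription factor that turns on Pomc in both cell types, and Pax7 is the pioneer factor that gives melanotropes their identity. Glucocorticoids close the loop by lowering Pomc transcription.

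Each library held between 6.67 and 13.02 M counts. Levels are given as CPM, the counts of a gene relative to the library's total after scaling by edgeR's TMM factors, and 1 count in the shallowest library was worth 0.150 CPM. Over the 20550 tested genes, 3804 (18.5%) were higher in Musashi IP and 1727 (8.4%) lower at a Benjamini-Hochberg adjusted p under 0.05 in edgeR's quasi-likelihood test with the lysate as a block. The median log2 fold change of all tested genes was -0.07. Protein-coding genes, the class of all 5 members, had a median of 0.09, and 25.7% of the 14202 tested were called higher.

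The Musashi motif was searched for in the longest annotated 3' UTR (3' untranslated region) of each member, on the transcript strand, in its 6 forms: G or A, followed by 1 to 3 U, followed by AGU. Avpr1b, Tbx19 and Pax7 each held 2 matches, and Pomc and Crhr1 none. The 6 sites are shown because they are all the matches in the 5 transcripts. Capitals mark the motif, each with 11 nt of its surroundings on either side, read 5' to 3' from the GENCODE M21 transcripts (GRCm38 annotation; Avpr1b and Tbx19 are on chromosome 1 and Pax7 on chromosome 4).
Avpr1b site 1: aacugguagauAUAGUguucuagaucu
Avpr1b site 2: cuaguagggauGUAGUaaaugcuggcu
Tbx19 site 1: cagaaaaaacgGUUUAGUcuaggugacuc
Tbx19 site 2: acuaggucaucAUUAGUggcucccauug
Pax7 site 1: cucauugucugGUAGUugaaaauguga
Pax7 site 2: agcuauauggaGUAGUagacuagaaag

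The sites of Avpr1b began 257 and 490 nt after the stop codon of a 2255 nt UTR, and those of Tbx19 at 156 and 567 nt of a 1108 nt UTR. Pax7 had its sites far downstream, at 2624 and 3617 nt of a 3725 nt UTR. A match is common in UTRs of these lengths. Among tested genes with a UTR within 20% of the same length, at least 1 match occurred in 93.8% for Avpr1b, 75.8% for Tbx19 and 98.4% for Pax7. At least as many as the member's 2 matches occurred in 81.3% of such UTRs for Avpr1b, 46.4% for Tbx19 and 94.7% for Pax7. The UTRs without a match were 174 nt long in Pomc and 995 nt in Crhr1, and 20.8% and 72.6% of UTRs of like length held at least 1. In the Pax7 transcript with the longest coding sequence, the annotated UTR was 111 nt and held 0 matches. A match is a description of these letters and not a measured binding site.

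**Figure D1:**
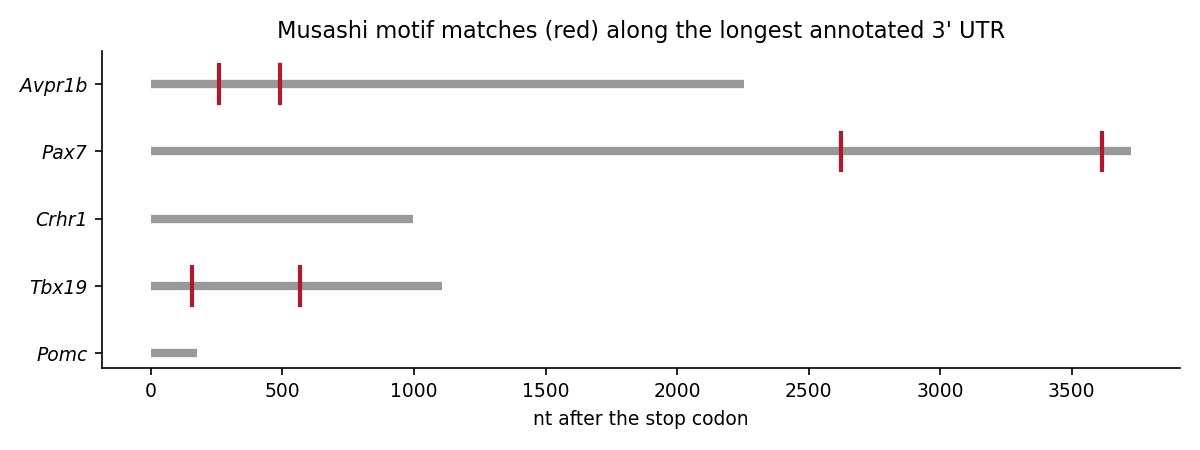
Positions of motif matches (red bars) along the longest annotated 3' UTR (grey) of each mRNA, in nt after the stop codon. Avpr1b, Pax7 and Tbx19 each hold 2 matches, and Crhr1 and Pomc hold none.

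In Musashi IP, the vasopressin receptor mRNA Avpr1b was 2.76-fold higher than in IgG, the melanotrope factor Pax7 was 1.74-fold higher and the CRH receptor mRNA Crhr1 was 1.4-fold higher. Pomc itself and its activator Tbx19 did not pass the test, at 1.02-fold and 1.11-fold. Thus 3 of 5 members were called higher, where 18.5% of all tested genes were, and none was called lower, where 8.4% were.

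Avpr1b showed the widest separation. Its level was 10.8, 13.6, 7.24, 15.6 and 12.8 CPM in the Musashi IP libraries of lysates 2, 3, 5, 6 and 7, against 5.82, 6.73, 1.43, 4.06 and 4.45 CPM in their IgG libraries. Every Musashi IP library was above every IgG library, which held for 9.71% of all tested genes and for no other member. The fitted log2 fold change was 1.46 ± 0.22 (SE), with a 95% interval of 0.97 to 1.95 and an adjusted p of 0.00398 (edgeR quasi-likelihood test), higher in 5 of 5 lysates. This put Avpr1b at percentile 97.3 of all tested genes and 96.3 of the protein-coding ones. The log2 ratio of a single lysate was lowest in lysate 2 (0.86) and highest in lysate 5 (2.18), where the IgG library held only 11 counts of Avpr1b.

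Pax7 stood at 24.1, 30.9, 23.3, 24.7 and 30.3 CPM in the Musashi IP libraries of lysates 2, 3, 5, 6 and 7, against 15.5, 24.8, 12.6, 10.6 and 15.4 CPM in IgG. The groups overlapped through lysate 3 alone, whose IgG library was the highest of its group. Within Musashi IP the Pax7 level varied least of all members, with the highest library 1.32 times the lowest, against 2.35 times within IgG. The log2 fold change was 0.80 ± 0.14 (SE; adjusted p = 0.0066, edgeR), higher in 5 of 5 lysates, with single-lysate ratios between 0.32 in lysate 3 and 1.21 in lysate 6.

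Crhr1 reached 15.6, 25.1, 15.9, 18.3 and 23.4 CPM in the Musashi IP libraries of lysates 2, 3, 5, 6 and 7, against 10.96, 23.7, 10.9, 9.63 and 17.4 CPM in IgG. The groups overlapped, since the male IgG libraries reached the levels of the female Musashi IP libraries, but each lysate was higher in Musashi IP. The difference ranged from 0.08 on the log2 scale in lysate 3 to 0.91 in lysate 6. The fit gave 0.48 ± 0.14 (SE; adjusted p = 0.0321, edgeR). This call was lost without lysate 2, 5 or 7, with adjusted p of 0.0514, 0.0774 and 0.115, and without the lysate block (0.44, adjusted p = 0.29). It was also lost with libraries scaled by their totals alone (0.31, adjusted p = 0.0846) and after a correction for transcript length and GC content (0.36, adjusted p = 0.0721). As a share of protein-coding nuclear counts, Crhr1 was higher in Musashi IP in 4 of 5 lysates. A log2 ratio above 0 in all 5 lysates, as in Avpr1b, Pax7 and Crhr1, occurred in 22.5% of all tested genes.

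Tbx19 was measured at 38.1, 51.0, 30.3, 23.1 and 45.1 CPM in the Musashi IP libraries of lysates 2, 3, 5, 6 and 7, against 31.4, 54.5, 24.2, 22.0 and 38.6 CPM in IgG. The groups overlapped over nearly their whole range. The log2 fold change was 0.15 ± 0.10 (SE), with a 95% interval of -0.08 to 0.39 and an adjusted p of 0.281 (edgeR), higher in 4 of 5 lysates and lower in lysate 3.

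Pomc was the most abundant of the 5, with 809, 775, 457, 332 and 1287 CPM in the Musashi IP libraries of lysates 2, 3, 5, 6 and 7, against 798, 719, 560, 269 and 1245 CPM in IgG. The lysates differed far more than the antibodies: within Musashi IP the highest library was 3.88 times the lowest, and within IgG 4.63 times. The log2 fold change was 0.04 ± 0.10 (SE), with a 95% interval of -0.19 to 0.26 and an adjusted p of 0.80 (edgeR). The ratio was above 0 in 4 of 5 lysates and lowest in lysate 5 (-0.29).

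The sign of the Pomc and Tbx19 differences depended on how libraries were scaled. With library totals alone, which moved the median of all tested genes to -0.24, Pomc was at -0.14 and Tbx19 at -0.02, and neither passed the test. As a share of all counts, Pomc took 0.0710% ± 0.0390 in Musashi IP and 0.0765% ± 0.0392 in IgG (SD, n = 5 each), lower in 3 of 5 lysates. As a share of protein-coding nuclear counts it took 0.0822% ± 0.0452 in Musashi IP and 0.0938% ± 0.0472 in IgG (SD, n = 5 each), lower in 5 of 5 lysates. A two-sided exact sign-flip test over the lysates gave p = 0.25 for the first share and, for the second, 0.063, the smallest value that 5 pairs allow.

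**Figure D2:**
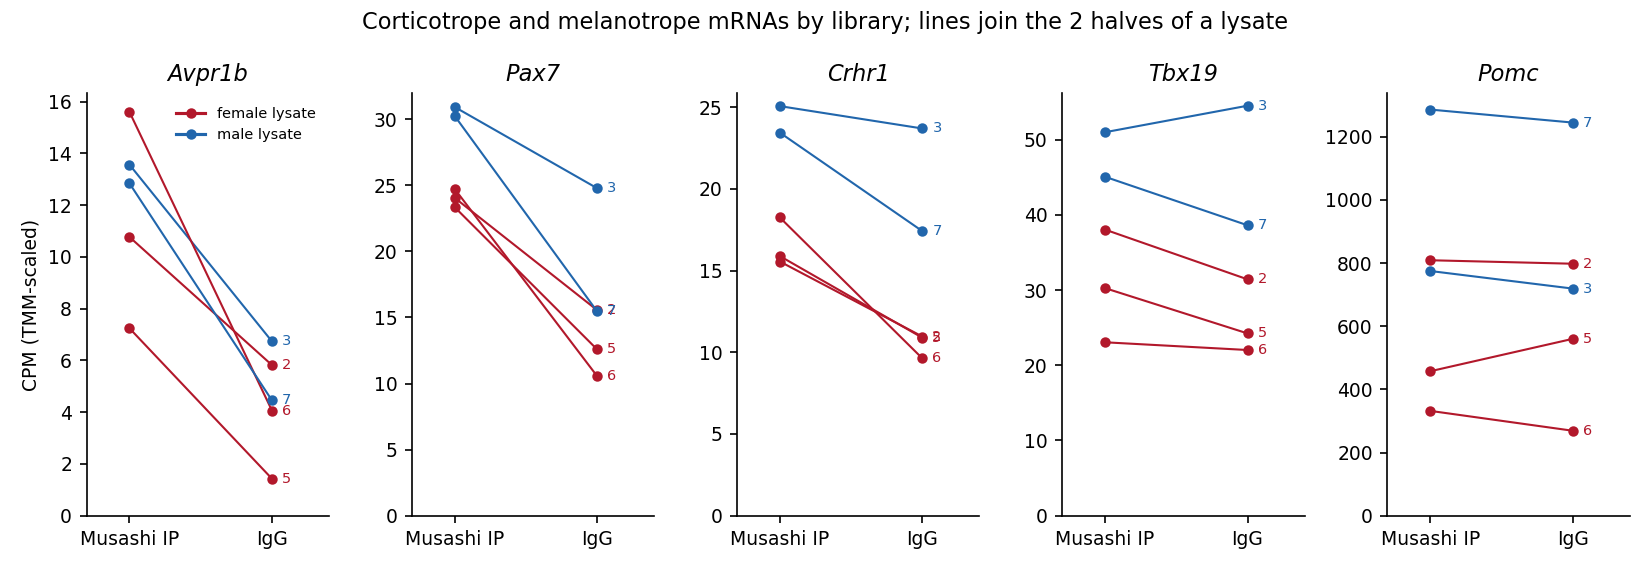
TMM-scaled CPM of each mRNA in Musashi IP (left) and IgG (right) libraries, each panel with its own axis from 0; a line joins the portions of a lysate, numbered at its right end, in red for females and blue for males. Avpr1b is the panel whose groups do not overlap, and the Pomc lines are nearly level, between 332 and 1287 CPM in Musashi IP.

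Differences between members can be read within a lysate, where the scaling of the libraries cancels. Over all 10 pairs of members, 8 had the same order in 5 of 5 lysates. Avpr1b exceeded Pax7 in its log2 ratio by 0.68 ± 0.39, Crhr1 by 0.99 ± 0.45, Tbx19 by 1.32 ± 0.53 and Pomc by 1.44 ± 0.66 (mean ± SD over 5 lysates). Pax7 exceeded Crhr1 by 0.31 ± 0.15, Tbx19 by 0.64 ± 0.32 and Pomc by 0.76 ± 0.37, and Crhr1 exceeded Tbx19 by 0.33 ± 0.29. Each of these 8 had a two-sided exact sign-flip p of 0.063, the smallest that 5 pairs allow, and 0.078 after adjustment over the 10 pairs, so none could pass 0.05 in this design. Crhr1 and Pomc differed by 0.45 ± 0.32, positive in 4 of 5 lysates (exact p = 0.125, adjusted 0.139). Tbx19 and Pomc differed by 0.12 ± 0.35, positive in 3 of 5 lysates, less than their spread.

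The 2 transcription factors show this in counts. Pax7 had between 0.606 and 1.072 counts per Tbx19 count in the Musashi IP libraries and between 0.400 and 0.519 in the IgG libraries, with no overlap. The 2 receptors did likewise, with between 1.17 and 2.19 Crhr1 counts per Avpr1b count in Musashi IP and between 1.88 and 7.64 in IgG. Here the ranges overlapped, because the IgG library of lysate 2 lay below the Musashi IP library of lysate 5, although each lysate had fewer Crhr1 counts per Avpr1b count in its Musashi IP library.

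**Figure D3:**
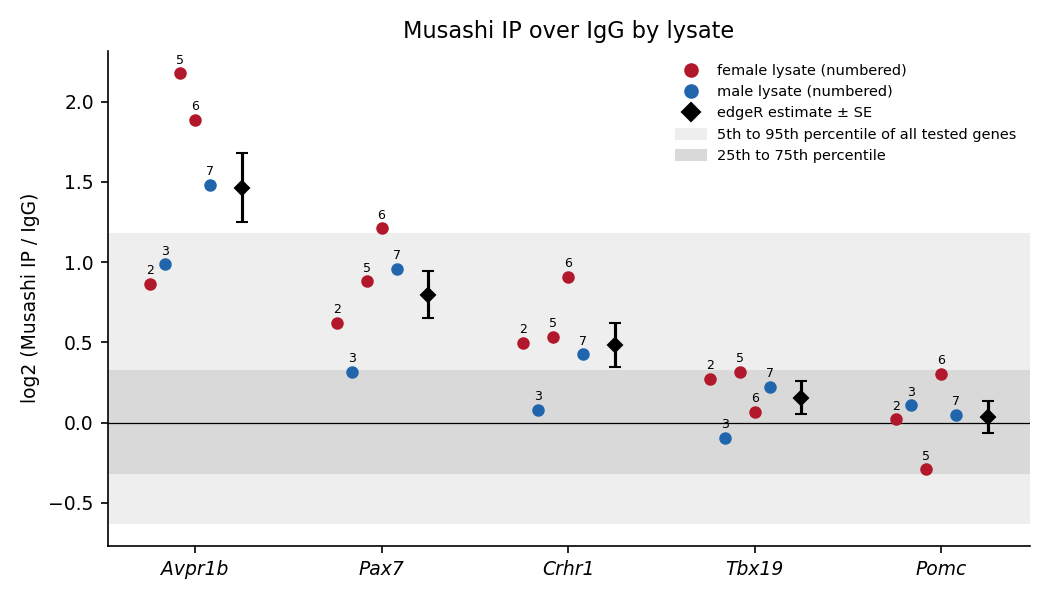
Log2 ratio of Musashi IP over IgG for each numbered lysate (red female, blue male) and the edgeR estimate ± SE (black); grey bands give the 5th to 95th and 25th to 75th percentiles of all tested genes. Avpr1b (1.46) lies above the wide band, Pax7 (0.80) inside it and Pomc (0.04) and Tbx19 (0.15) inside the narrow band.

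Between genes, levels were compared per kilobase of annotated exon. Pomc was at 555 ± 282 CPM per kb in Musashi IP and 545 ± 271 in IgG, Tbx19 at 11.7 ± 3.51 and 10.7 ± 4.11, Crhr1 at 7.98 ± 1.78 and 5.90 ± 2.43, Pax7 at 4.55 ± 0.62 and 2.69 ± 0.93, and Avpr1b at 2.98 ± 0.79 in Musashi IP and 1.12 ± 0.50 in IgG (SD, n = 5 each, Musashi IP given before IgG for each gene). The order of the mean levels was the same with both antibodies. The ranges of Tbx19 and Crhr1 overlapped between libraries in both groups and those of Crhr1 and Pax7 in IgG. Within a library, however, each gene was above the next in this order in 5 of 5 Musashi IP and 5 of 5 IgG libraries, except that Tbx19 was above Crhr1 in 4 of 5 Musashi IP libraries, with a lowest ratio of 0.974. Among these 5 mRNAs, the least abundant had the largest Musashi IP difference and the most abundant the smallest. The IgG level enters both the order and the ratio, and a relation between level and difference was not tested.

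Within females, with 3 lysates, Avpr1b (log2 1.63 ± 0.30 SE, adjusted p = 0.0209), Pax7 (0.91 ± 0.20, adjusted p = 0.0273) and Crhr1 (0.66 ± 0.18, adjusted p = 0.0472) were called higher in Musashi IP by edgeR, as were 11.6% of all tested genes. Within males, with 2 lysates, the estimates were 1.26 ± 0.34 for Avpr1b, 0.64 ± 0.23 for Pax7 and 0.25 ± 0.20 for Crhr1 (log2 ± SE). None of these was called, and neither was any other gene in males (0 of 20550, or 0%), although 2548 genes had an unadjusted p under 0.05 and DESeq2 called 544.

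The difference between the sexes was tested itself. The female minus male difference of the log2 fold change was 0.40 ± 0.27 for Crhr1, 0.37 ± 0.46 for Avpr1b, 0.27 ± 0.30 for Pax7, 0.16 ± 0.23 for Tbx19 and -0.07 ± 0.22 for Pomc (SE), each with an adjusted p of 1 in edgeR. No gene passed (0 of 20550, or 0%; 187 at an unadjusted p under 0.05; DESeq2 also called 0). The intervals were wide: for Avpr1b the 95% interval of the difference ran from -0.68 to 1.42.

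The sexes were also compared within each antibody, and all 5 estimates within IgG were below 0, of which Crhr1 alone passed the test. Within IgG, Crhr1 was at 10.96, 10.9 and 9.63 CPM in the female lysates 2, 5 and 6, against 23.7 and 17.4 CPM in the male lysates 3 and 7. The groups did not overlap, and the log2 difference of females over males was -0.98 ± 0.24 (SE; adjusted p = 0.043, edgeR), where 4.5% of 20987 tested genes were called in either direction. The Crhr1 call was lost without lysate 3, 5, 6 or 7, with log2 differences between -1.18 and -0.74. Tbx19 did not overlap between the sexes either, at -0.85 ± 0.22 (adjusted p = 0.0513), and it passed the threshold in DESeq2 (adjusted p = 0.0269), with library totals (0.0157), without the low-count filter (0.00362) and without lysate 2 (0.00651). Pomc was at -0.87 ± 0.36 (adjusted p = 0.25), Pax7 at -0.65 ± 0.27 (0.257) and Avpr1b at -0.56 ± 0.47 (0.629). For these 3 the sexes overlapped, with the female lysate 2 above a male one, as in Pomc with 798 CPM in lysate 2 against 719 CPM in lysate 3.

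Within Musashi IP all 5 estimates of females over males were again below 0, and none was called, where 2.84% of 21238 tested genes were. They were -0.95 ± 0.40 for Pomc, -0.67 ± 0.27 for Tbx19, -0.57 ± 0.22 for Crhr1, -0.37 ± 0.21 for Pax7 and -0.26 ± 0.32 for Avpr1b (log2 ± SE; adjusted p between 0.239 and 0.744, edgeR). Musashi IP and IgG libraries come from the same lysates, so these are not independent of the IgG values. Without lysate 2, the female lysate with the most Pomc, the Pomc difference passed the threshold in both groups, at -1.43 in Musashi IP (adjusted p = 0.0243) and -1.24 in IgG (adjusted p = 0.0185). Markers of other hormone cells were mostly below 0 as well: 6 of 10 tested within Musashi IP (median -0.93, 1 called lower and 1 higher) and 8 of 10 within IgG (median -0.94, 3 called lower and 1 higher). The 5 members had medians of -0.57 within Musashi IP and -0.85 within IgG. The marker called higher was Prl, the lactotrope hormone, at 3.09 ± 0.45 in Musashi IP and 3.27 ± 0.52 in IgG (log2 female over male ± SE; adjusted p = 0.00478 and 0.00442). Fewer cells of a type and less RNA per cell cannot be told apart in bulk libraries, and the part of Prl in the CPM of the other genes was not tested.

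**Figure D4:**
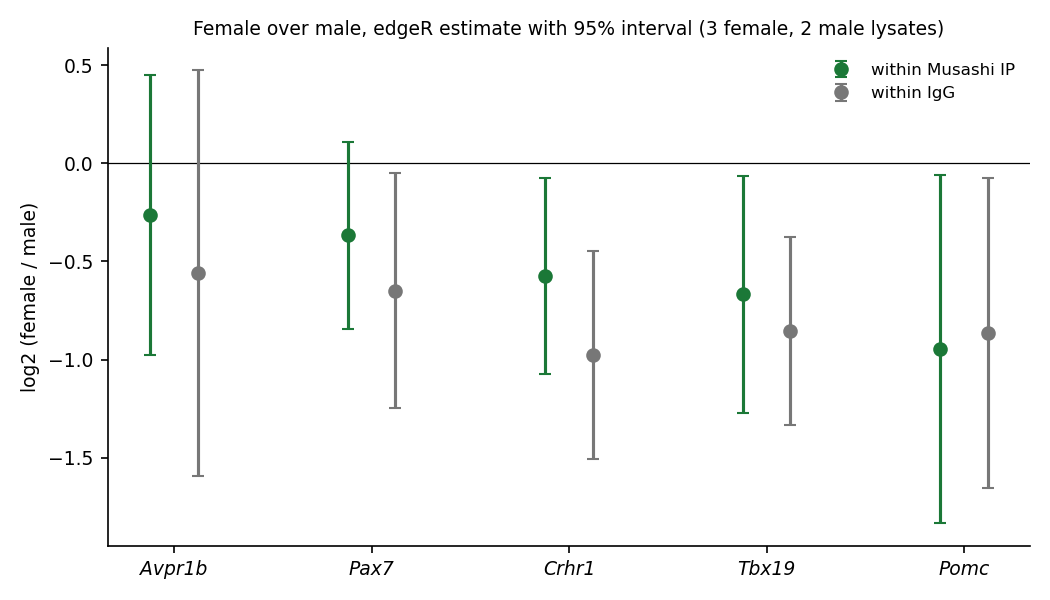
Log2 difference of female over male libraries for each mRNA (edgeR estimate with 95% interval), within Musashi IP (green, left) and within IgG (grey, right), from 3 female and 2 male lysates. All 10 estimates lie below 0, from -0.26 for Avpr1b in Musashi IP to -0.98 for Crhr1 in IgG.

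The genes that act around these 5 were described by lists of receptors, signalling proteins, transcription factors and processing enzymes. Over 8 such lists, 32 of 83 tested genes were called higher in Musashi IP and 0 lower (edgeR), with a median log2 fold change of 0.28, against 18.5% called higher, 8.4% called lower and a median of -0.07 over all tested genes and 25.7% called higher over the protein-coding ones. At least 1 of the 83 was called lower under several alternatives, with 1 under library totals and 6 after the length and GC correction.

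Among the relatives of the 2 receptors, the oxytocin receptor Oxtr was the only one of 4 with enough counts to be tested. Its log2 fold change was 1.05 ± 0.25 (SE; adjusted p = 0.0169, edgeR), higher in 5 of 5 lysates. The call was lost without lysate 5 (adjusted p = 0.0503) and without the lysate block (0.635). The male lysates held few Oxtr counts, 7 in Musashi IP against 5 in IgG in lysate 3 and 7 against 3 in lysate 7. Oxtr was higher in females (log2 female over male 5.14 ± 0.61 SE in Musashi IP and 4.59 ± 0.92 in IgG; adjusted p = 0.00175 and 0.0161), with 40.3, 16.9 and 15.4 CPM in the Musashi IP libraries of lysates 2, 5 and 6 and 0.76 and 0.60 CPM in those of lysates 3 and 7. In IgG it was at 27.7, 7.91 and 3.83 CPM in the same female lysates and 0.67 and 0.39 CPM in the male ones. Crhr2, Avpr1a and Avpr2 had at most 7, 3 and 5 counts in any library.

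In CRH and vasopressin receptor signalling, 9 of 23 genes were called higher, against 25.7% of tested protein-coding genes, and 0 lower (median 0.23). The other 14 were not called, the lowest at -0.42, and 4 genes of the list were called lower after the length and GC correction. The calls fell in both arms but did not cover all their steps. Gnas, which encodes the Gs subunit, was higher in 1 of 5 lysates and Plcb1, a phospholipase C, in 0 of 5. On the cyclic AMP side, the protein kinase A catalytic subunit Prkacb was at 2.16 ± 0.26 and the regulatory subunit Prkar2b at 1.20 ± 0.25 (log2 ± SE; adjusted p = 0.00336 and 0.0117, edgeR). On the Gq side, the G protein subunits Gna11 and Gnaq, which couple receptors such as Avpr1b to phospholipase C, were at 1.90 ± 0.28 and 1.14 ± 0.20 (adjusted p = 0.00395 and 0.0059). Prkacb, Prkar2b, Gna11 and Gnaq were each higher in 5 of 5 lysates.

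Of 15 genes listed as transcriptional regulators of Pomc, 6 were called higher, against 25.7% of tested protein-coding genes, and 0 lower (median 0.25). Pitx1, a homeodomain factor that acts on the Pomc promoter together with Tbx19, was at 1.46 ± 0.21 (log2 ± SE; adjusted p = 0.00382, edgeR). Its level was 101, 79.0, 90.7, 189 and 83.2 CPM in the Musashi IP libraries of lysates 2, 3, 5, 6 and 7, against 47.3, 40.4, 38.0, 34.1 and 28.7 CPM in IgG, with no overlap. Gata2 (0.98 ± 0.16, adjusted p = 0.00489) and the neuroendocrine zinc finger factor Insm1 (0.85 ± 0.20, 0.0169) were also called. The Gata2 call was lost without the lysate block (adjusted p = 0.152). Neurod1, a bHLH activator of Pomc in corticotropes, was at 0.25 ± 0.20 (adjusted p = 0.369), and Nr4a1, the orphan receptor that carries the CRH signal to Pomc, at 0.25 ± 0.11 (adjusted p = 0.108).

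The enzymes that cut POMC did not pass the test. Pcsk1, the convertase that yields ACTH, was at 0.16 ± 0.12 (log2 ± SE; adjusted p = 0.337, edgeR), with a sign that turned to -0.02 under library totals. Pcsk2, which acts further on in melanotropes, was at -0.06 ± 0.09 (adjusted p = 0.608). In the same list of 10, Cpe, the carboxypeptidase that trims the cut peptides, was called higher at 1.22 ± 0.22 (adjusted p = 0.00685). Cpe stood at 328, 246, 221, 483 and 327 CPM in the Musashi IP libraries of lysates 2, 3, 5, 6 and 7, against 242, 116, 104, 98.3 and 140 CPM in IgG. The only other call was Pcsk1n, which encodes an inhibitor of Pcsk1, at 0.45 ± 0.14 (adjusted p = 0.0419), and this call was lost in 10 of 14 alternatives. The 2 calls were 20% of the list, where 25.7% of tested protein-coding genes were called higher. The list's count was 1 without lysate 3, 6 or 7 and 4 without lysate 2.

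In glucocorticoid feedback, 5 of 16 genes (31.25%) were called higher and 0 lower (median 0.04), where 25.7% of tested protein-coding genes were called higher. The count fell to 3 without lysate 3 or 5 and to 2 without lysate 7 or without the lysate block. After the length and GC correction, 1 gene of the list was called lower. The glucocorticoid-induced Tsc22d3 was at 1.88 ± 0.35 and Fkbp5, a co-chaperone of the glucocorticoid receptor, at 1.16 ± 0.20 (log2 ± SE; adjusted p = 0.00731 and 0.00539, edgeR). The Fkbp5 call was lost without the lysate block (adjusted p = 0.167). The coactivator Ncoa2 was at 0.59 ± 0.13 (adjusted p = 0.0119), a call lost without lysate 7. The receptor itself, Nr3c1, was at 0.55 ± 0.17 (adjusted p = 0.0437), higher in 4 of 5 lysates, and this call was lost without lysate 3, 5 or 7, with DESeq2 size factors (adjusted p = 0.0549) and without the lysate block (0.145).

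Of 7 receptors that inhibit POMC cells, 5 were called higher, against 25.7% of tested protein-coding genes, and 0 lower (median 0.82). They included the somatostatin receptors Sstr5 (0.998 ± 0.14), Sstr1 (0.99 ± 0.23) and Sstr3 (0.84 ± 0.17) and the dopamine receptor Drd2 (0.82 ± 0.16), which restrains melanotropes (log2 ± SE; adjusted p between 0.00382 and 0.0148, edgeR). The lowest value of the list was -0.29, and the uncalled GABA receptor subunit Gabbr1 was higher in 1 of 5 lysates. After the length and GC correction, 1 gene of the list was called lower. Without the lysate block the count of genes called higher fell to 3, and Sstr5 lost its call (adjusted p = 0.0648). These receptors are also expressed by other pituitary cells, Drd2 by lactotropes among them. In LIF, gp130 and EGF receptor signalling, 3 of 7 tested genes were called higher, against 25.7% of tested protein-coding genes, and 0 lower (median 0.28). The 3 were the shared receptor subunit Il6st (1.92 ± 0.24), the LIF receptor Lifr (0.81 ± 0.19) and the feedback inhibitor Socs3 (0.73 ± 0.18). Their adjusted p values were 0.00336, 0.0167 and 0.0204 (edgeR). The Socs3 call was lost without lysate 5 or 7 and without the lysate block (adjusted p = 0.0741).

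Of 10 melanocortin and opioid receptors and accessory proteins, in the list for POMC peptides, 4 had enough counts. Oprk1, an opioid receptor, was called higher at 1.03 ± 0.29 (log2 ± SE, adjusted p = 0.0324, edgeR). This call was lost without lysate 5, without the lysate block (adjusted p = 0.394) and, with the value at 0.61, without lysate 6. The other 3 were not called, and Oprm1, another opioid receptor, was the lowest at -0.53 and higher in 1 of 5 lysates. Without lysate 2, 2 genes of the list were called higher and 1 lower. Oprk1 too was higher in females (log2 female over male 5.09 ± 0.69 SE in Musashi IP and 3.51 ± 0.42 in IgG; adjusted p = 0.00313 and 0.00065), with 14.0, 11.2 and 42.0 CPM in the Musashi IP libraries of lysates 2, 5 and 6 and 0.76 and 0.52 CPM in those of lysates 3 and 7. In IgG it was at 7.27, 7.65 and 10.6 CPM in the same female lysates and 0.67 and 0.79 CPM in the male ones.

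**Figure D5:**
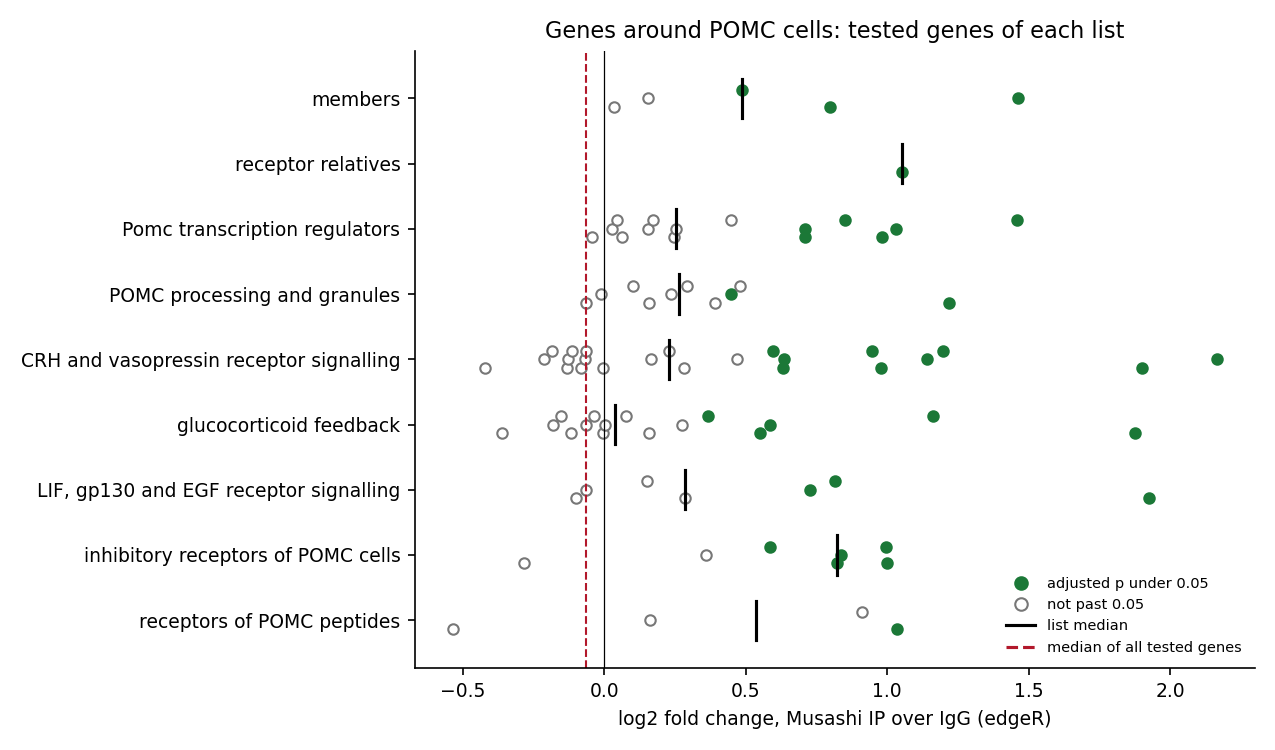
Log2 fold change of Musashi IP over IgG for each tested gene of the members and of 8 lists; filled points passed an adjusted p of 0.05, black bars are list medians and the dashed line is the median of all tested genes (-0.07). No filled point lies left of 0, and the glucocorticoid feedback median (0.04) lies near 0 while that of the inhibitory receptors (0.82) does not.

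Across the 10 libraries, the genes whose log2 CPM followed each member most closely were ranked among 11636 protein-coding genes of at least 5 CPM. Pomc ran with Gh, the growth hormone gene (Pearson's r = 0.963), Acaa2 (0.937) and Cga, the shared subunit of the glycoprotein hormones (0.937). None of these 3 passed the Musashi IP test. Tbx19 ran with Ppl (0.977), Gldc (0.957) and B4galnt1 (0.955), which did not pass either. Pax7 ran with Synpo (0.982), Fam213a (0.961) and Snupn (0.960), Crhr1 with Klhl29 (0.973), Rims3 (0.971) and Dpf1 (0.970), and Avpr1b with Slc8a2 (0.956), Nxn (0.953) and the somatostatin receptor Sstr3 (0.950). Of these 9, all but Snupn were called higher in Musashi IP, but Slc8a2, Dpf1, Nxn and Klhl29 lost their calls without lysate 5 and without lysate 7. The libraries share lysates, sex and antibody, which all enter these values, so they are a description with no test.

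Among the members themselves, Pax7 and Crhr1 followed each other most closely (r = 0.889 over the 10 libraries), then Pax7 and Avpr1b (0.841), while Pomc and Avpr1b did least (0.135). Pomc and Tbx19, the pair that did not pass the Musashi IP test, were at 0.747.

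Markers of other cells did not all move alike between the antibodies. Of 10 tested markers of other hormone cells, 4 were called higher in Musashi IP and 0 lower (edgeR), where 25.7% of tested protein-coding genes were called higher. The largest were the gonadotrope genes Fshb (2.28 ± 0.37 log2 ± SE) and Gnrhr (1.61 ± 0.23). With the lysates unpaired, Fshb was not called (2.36, adjusted p = 0.0649, edgeR). The call of the receptor gene Trhr failed in 11 of 14 alternatives. The other tested hormone genes Gh, Prl, Cga and Tshb were not called, at -0.19, 0.04, -0.07 and -0.28 (log2). These 4 were higher in 2, 2, 1 and 0 of 5 lysates. Of 4 tested erythroid genes, 3 were called lower, where 8.4% of all tested genes were, with Hbb-bs at -0.79 ± 0.14. All 3 lost their calls without the lysate block. Hbb-bt and Hba-a1 also lost theirs with the length and GC correction, without lysate 5 and without lysate 7, and Hbb-bt without lysate 2. The erythroid list summed to between 272 and 689 CPM in Musashi IP libraries and between 461 and 1249 CPM in IgG libraries. The globin genes have near-identical copies, so how reads were split among them is uncertain. None of 5 endothelial genes was called, with sums between 59.4 and 121 CPM in Musashi IP and between 65.2 and 291 CPM in IgG. The highest sum was that of the IgG library of lysate 2, which stood apart: Kdr, a receptor of endothelial cells, had a log2 ratio of Musashi IP over IgG of -2.48 in lysate 2 and 0.87 in lysate 3. Without lysate 2, the Avpr1b and Pax7 calls were kept. Of 6 listed neural lobe and hypothalamic genes, only Col25a1 had enough counts to be tested, and it was not called. Its mean level was 80.1 CPM in Musashi IP and 76.5 CPM in IgG. Avp, Oxt, Crh, Rax and Nkx2-1 had at most 23, 18, 1, 25 and 21 counts in any library. The part of these cells in the members' differences was not tested.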

How the data were processed

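The authors deposited raw read counts per Ensembl gene in whole numbers. Per the submitters' processing notes, reads on build GRCm39 involved FastQC 0.11.8, Trimmomatic 0.39 and STAR 2.7.1a. Not given in the sources used here were the counting program, its annotation and its strand setting, so reads of overlapping genes cannot be assigned with certainty. Symbols, exon lengths and 3' UTRs came from GENCODE M21 by gene ID (52135 IDs, 94.1%, matched). As its build is older, no coordinates are given.

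Counts were tested in R 4.3.3 with edgeR 4.0.16 (filterByExpr, TMM, quasi-likelihood test, Benjamini-Hochberg adjustment at 0.05 over all tested genes), with the lysate as a block for Musashi IP against IgG and unpaired for females against males within each antibody. The SE is the log2 fold change divided by the square root of F. The script was tested on simulated data. Single-lysate ratios used a prior count of 2. DESeq2 1.42.0 and limma 3.58.1 served as alternatives.

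The protocol's split of each lysate pairs the libraries. Deviations of same-numbered libraries correlated at 0.523, 0.679, 0.602, 0.186 and 0.778 in lysates 2, 3, 5, 6 and 7. In lysate 6 a library of another number correlated more closely (0.415), and in the other 4 none did. The protocol states separate occasions but not separate sets of mice, so p-values measure the spread between these lysates.

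The members, the gene lists, the tests and the alternatives were chosen with earlier results of these data known. Named were the members, the receptor relatives, up to 4 called genes per list by size of fold change, Neurod1, Pitx1, Nr4a1, Nr3c1, Pcsk1, Pcsk2 and Drd2, and 3 similar genes per member. A gene that this rule names is not reported here. Prl, Kdr, Gnas, Plcb1, Oprm1, Tshb, and the counts of Avp, Oxt and Crh, were added after their values were seen.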

Additional observations from a re-analysis of the deposited data

Results flagged for a closer look

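Results on 63 sets of 5 values (CPM of each member in each group, and the 5 single-lysate log2 ratios of each named gene) were checked for a value far from the others, which chance gives in about 1 of 20 sets. None of the members' sets held such a value, and 2 sets of other genes did. For Hba-a1, an erythroid gene, the log2 ratio of Musashi IP over IgG was 0.078 in lysate 3, the highest of the 5. For B4galnt1, a gene whose level followed Tbx19, it was 0.57 in lysate 6, the highest of the 5.

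Gldc, another gene whose level followed Tbx19, had a log2 ratio above 0 in every female lysate (mean 0.14) and below 0 in every male lysate (mean -0.15). The ratios were 0.0041, 0.37 and 0.054 in the female lysates 2, 5 and 6. In the male lysates 3 and 7 they were -0.041 and -0.26. In edgeR the female minus male difference was 0.29 ± 0.28 (SE; adjusted p = 1) and did not pass.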

How the results depend on the processing

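Avpr1b and Pax7 kept their calls in all 14 alternatives run, with log2 fold changes between 1.25 and 1.62 and between 0.53 and 0.84. Crhr1 lost its call in 6, at 0.31 with library totals, 0.44 with no replicate block, 0.36 with the length and GC correction in the fit with the replicate block, and at 0.48, 0.52 and 0.43 without lysate 2, 5 and 7. With each lysate left out in turn it ranged from 0.38 to 0.52. The block changed no other member's call. Pomc and Tbx19 were not called in any alternative, but Pomc turned to -0.14 with library totals, -0.060 with a 2 CPM filter and -0.064 with protein-coding genes only, and ranged from -0.072 to 0.17 with 1 lysate left out; Tbx19 turned to -0.020 with library totals. The cause was not tested.

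Genes called lower numbered 4107 with library totals and 3214 with the 2 CPM filter. With no replicate block, 2407 genes were called higher, 176 lower, and 20 in the 8 lists higher. With 1 lysate left out, 2288 to 4188 were called higher and 182 to 2100 lower; the lowest counts were without lysate 7 for higher genes and without lysate 5 for lower ones, and without lysate 7 only 597 were lower. In the 8 lists, 1 gene was called lower with library totals, with DESeq2 size factors, with the 2 CPM filter and with protein-coding genes only, 6 with the length and GC correction, and 0 to 2 with 1 lysate left out.

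Other uncalled genes also changed sign. With library totals Pcsk1 was at -0.020, Gldc at -0.15 and B4galnt1 at -0.066. Gldc was at -0.0041 with DESeq2 size factors, -0.077 with the 2 CPM filter, -0.0034 in DESeq2, -0.0055 with no replicate block, -0.079 with protein-coding genes only and -0.21 with the length and GC correction, under which Cga was at 0.20, Ppl at -0.039 and B4galnt1 at -0.020. With 1 lysate left out, Gldc ranged from -0.056 to 0.025, Pcsk2 from -0.16 to 0.011, Acaa2 from -0.17 to 0.10 and Cga from -0.18 to 0.042.

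Between females and males within IgG, Tbx19 passed the threshold at -0.95 with library totals, -0.85 with no low-count filter and -0.85 in DESeq2, and ranged from -1.08 to -0.58 with 1 lysate left out. Pomc passed it with no low-count filter, at -0.86 in IgG and -0.96 in Musashi IP, and ranged from -1.24 to -0.41 in IgG and from -1.43 to -0.55 in Musashi IP with 1 lysate left out. Crhr1 in IgG ranged from -1.18 to -0.74. The female minus male difference of the antibody effect ranged from -0.039 to 0.52 for Pax7 and from -0.21 to 0.11 for Pomc. The differences between members, an alternative chosen after seeing the data, kept their direction with each lysate left out, with Avpr1b minus Crhr1 between 0.83 and 1.15, except Tbx19 minus Pomc, which ranged from -0.0032 to 0.21. The Pax7 UTR of the transcript with the longest coding sequence held 0 motifs. Intervals cover the spread between 5 lysates; with 11 Avpr1b counts in the IgG library of lysate 5, its ratio there is imprecise.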
